A study of Mus musculus with 3 samples.

Results

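The genes described here are Il10 and 7 receptor chains of the class II cytokine receptor family: Ifnlr1, Il10ra, Il10rb, Ifnar1, Ifnar2, Ifngr1 and Ifngr2. They were taken from the deposited gene tables by their gene names. All 8 were among the 24901 gene rows, and all 8 were among the 10754 genes counted as measured, which had at least 1 CPM (a count scaled to its library's size and TMM factor) and 30 counts in at least 1 library. The list was chosen by gene name and receptor family, but with the ratios to control in these libraries already known, above all that of Ifnlr1. Its values are therefore a description and carry no test. The cells were CH12, a line of mouse B lymphoma cells in which immunoglobulin class switching is often studied. The groups were a control (no time given in the labels), cells treated with TGFb at 5 ng/ml for 6 h and cells treated with TGFb at 5 ng/ml for 24 h, with 1 library each, and no genetic change is named for any group.

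Class II cytokine receptors work as pairs of chains. Ifnlr1 pairs with Il10rb to bind type III (lambda) interferons, and Il10ra pairs with the same Il10rb to bind interleukin 10. Ifnar1 and Ifnar2 form the receptor for type I interferons, and Ifngr1 and Ifngr2 the receptor for interferon gamma. The chains carry Janus kinases, which phosphorylate Stat proteins that then enter the nucleus. Il10 is a cytokine that restrains inflammation and is made by some B cells, among them B cells of the lineage that CH12 resembles. Ifnlr1 is best known from epithelial cells.

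The control library held 51386081 counts, that of 6 h 64229801 and that of 24 h 27487221. With 1 library per group, no spread between cultures can be estimated. The intervals given below have a 95% level and cover counting error alone. No molecular identifiers are named in the labels, and reads without them are not independent molecules. Time in culture cannot be told apart from treatment, since the control carries no time. In bulk RNA, fewer cells of a type and less RNA per cell cannot be told apart. All 8 B cell markers looked for were measured, with summed levels of 1525, 1387 and 1617 CPM (here and below in the order control, 6 h, 24 h). Within that list Cd22, an inhibitory receptor of B cells, stood apart at 139, 37.0 and 15.6 CPM. Of 8 myeloid markers, 4 were measured, with sums of 274, 240 and 296 CPM, of which Mpeg1 alone gave 263, 220 and 254 CPM. Among the other myeloid markers, Lyz2 and Cd14 had at most 6 and 4 counts. Csf1r (8.33, 16.4 and 25.8 CPM), Adgre1 (2.04, 2.5 and 12.9 CPM) and Itgam (0.864, 0.902 and 3.24 CPM) were highest at 24 h. Of 6 T cell markers, 1 was measured (sums of 3.31, 1.96 and 1.93 CPM). No NK cell marker was measured (sums of 0.0617, 0.109 and 0.0345 CPM), and Ncr1 and Gzma had 0 counts in each library. Of 4 epithelial markers, 1 was measured (1.46, 1.76 and 2.1 CPM), and of 5 fibroblast and endothelial markers, 3 (3.7, 7.56 and 13.1 CPM). Their part in the results below was not tested.

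Levels of different genes were compared as deposited TPM, a level scaled to transcript length and to the library. In control, Il10 stood highest of the 8 at 212 TPM, followed by Ifngr2 at 58.6, Il10rb at 35.5, Ifnar2 at 29.3, Ifngr1 at 17.4, Ifnar1 at 13.3, Il10ra at 2.95 and Ifnlr1 at 0.25 TPM. The median measured gene stood at 19.8 TPM in control, so the 2 chains that give the Il10 and lambda interferon receptors their specificity lay far below it. At 24 h the order had changed at the top. Ifngr2 stood first at 131 TPM and Il10 second at 114 TPM, while Il10ra and Ifnlr1 were still the lowest at 10.6 and 8.36 TPM. Each gene lay above the next in its library by more than the counting interval. The closest neighbours were Ifngr1 over Ifnar2 at 6 h, by 1.08-fold (1.02 to 1.14), and Ifnar2 over Ifnar1 at 24 h, by 1.11-fold (1.03 to 1.19). Gaps of this size have no replicate check.

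**Figure D1:**
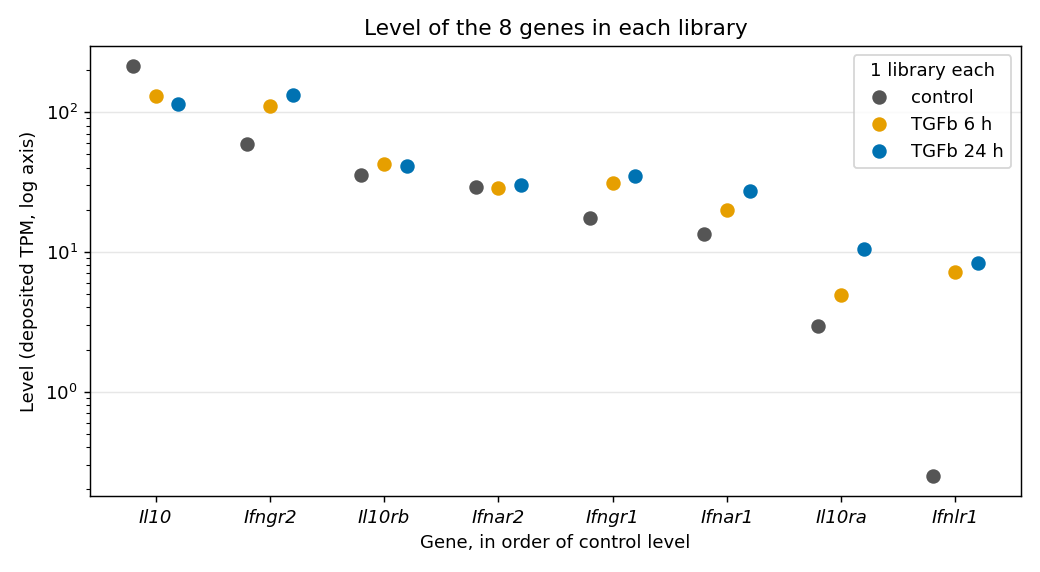
Level of each gene in deposited TPM on a log axis, 1 point per library (grey control, orange TGFb 6 h, blue TGFb 24 h). Il10 is highest in control at 212 TPM, and Ifnlr1 moves from 0.25 TPM in control to 7.19 and 8.36 TPM.

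Ifnlr1 (chromosome 4, 135686457 to 135708181, plus strand) was close to silent in control and clearly present after TGFb. Its counts were 32, 1077 and 525, or 0.658, 16.7 and 18.1 normalized CPM. The control value has a Poisson interval of 0.45 to 0.929 CPM, and both treated values lie far outside it. Ifnlr1 was 25.4-fold higher at 6 h (17.9 to 37.4) and 27.5-fold higher at 24 h (19.2 to 40.6). Of the 10754 measured genes, 2 had a larger ratio to control at 6 h and 8 at 24 h. Between 6 h and 24 h its level differed by 1.08-fold (0.972 to 1.2), an interval that holds a ratio of 1. Within its library, Ifnlr1 lay at percentile 1.5 of measured genes by TPM in control, and at 23.3 and 23.5 after treatment.

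Il10rb (chromosome 16, 91406157 to 91425834, plus strand), the chain that Ifnlr1 and Il10ra share, lay near control. Its levels were 40.3, 43.3 and 38.5 CPM. It was 1.07-fold higher at 6 h (1.01 to 1.14), and at 24 h its ratio to control was 0.954 (0.886 to 1.03). The sign at 24 h turned with total counts, the deposited TPM and the length trend removed (log2 ratios of 0.09, 0.20 and 0.08).

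The stretch before the Ifnlr1 start site is shown because this gene stood furthest from control of the 8. The sequence is the 250 bases upstream of the start site in RefSeq's GRCm38.p6 table (the same assembly as mm10), 5′ to 3′, with matches to the Smad box in capitals (CAGAC or, on the other strand, GTCTG).
Ifnlr1 (chr4:135686207-135686456, + strand): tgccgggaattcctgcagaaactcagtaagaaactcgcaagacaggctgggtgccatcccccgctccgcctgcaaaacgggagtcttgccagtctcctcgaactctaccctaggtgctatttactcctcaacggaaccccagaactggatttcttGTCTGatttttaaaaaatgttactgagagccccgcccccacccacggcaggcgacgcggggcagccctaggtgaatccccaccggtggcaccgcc
The window held 1 Smad box, at position -95 from the start site, on the other strand. Such a box occurred in 42.2% of the 32851 promoter windows of the same length, so a match is common. The palindromic box (GTCTAGAC, 0.167% of windows), GGCGCC (9.59%), the AP-1 letters TGANTCA (6.75%), the Stat letters TTCNNNGAA (7.02%), the interferon response core (GAAA, then 2 bases of any kind, then GAAA; 2.98%), the E-box CACGTG (6.02%) and the Runx letters TGTGGT (14.0%) were searched on both strands and had no match in these 250 bases. The Ifnlr1 window held 14 CpG dinucleotides against a median of 6 over all windows.

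Il10 (chromosome 1, 131019845 to 131024970, plus strand), the cytokine of the set, was abundant in control and lower after TGFb. It had 7917, 5752 and 2103 counts, or 163, 89.4 and 72.5 CPM. It was 1.82-fold lower at 6 h (1.76 to 1.88) and 2.25-fold lower at 24 h (2.14 to 2.36). There were 68 measured genes with a smaller ratio to control at 6 h, and 113 at 24 h. The level at 24 h was 1.23-fold below that at 6 h (1.17 to 1.3), so most of the difference from control was already there at 6 h. At 24 h Il10 missed the 2-fold limit with the deposited TPM (log2 ratio of -0.90) and with the length trend removed (-0.91).

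Il10ra (chromosome 9, 45253837 to 45269149, minus strand), the chain that gives the Il10 receptor its specificity, was higher after TGFb. It had 319, 639 and 569 counts, or 6.56, 9.93 and 19.6 CPM. It was 1.51-fold higher at 6 h (1.32 to 1.74) and 2.99-fold higher at 24 h (2.6 to 3.44). From 6 h to 24 h it was 1.97-fold higher (1.76 to 2.21), the largest ratio of the 8 genes between these libraries, and 207 measured genes had a larger one. The ratio of Il10 to Il10ra levels per length was 71.9 in control (64.3 to 80.7), 26.4 at 6 h (24.3 to 28.6) and 10.8 at 24 h (9.82 to 11.8).

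Ifnar1 (chromosome 16, 91485032 to 91510523, plus strand), a chain of the type I interferon receptor, had 61.8, 82.9 and 105 CPM. It was 1.34-fold higher at 6 h (1.28 to 1.4) and 1.70-fold higher at 24 h (1.61 to 1.78), under the 2-fold limit (past it with TPM, at a log2 ratio of 1.02). With the length trend removed its log2 ratio was smaller, 0.22 in place of 0.42 at 6 h and 0.40 in place of 0.76 at 24 h. Its partner Ifnar2 (chromosome 16, 91372783 to 91405589, plus strand) stood at 35.8, 32.8 and 33.8 CPM. Ifnar2 was 1.09-fold lower at 6 h (1.02 to 1.16), and at 24 h its ratio to control was 0.943 (0.871 to 1.02). The sign at 24 h turned under the same 3 alternatives as for Il10rb (0.07, 0.04 and 0.03).

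The tables also give a length for each gene, which RSEM averages over the gene's transcripts by their estimated abundance. Ifnar2, with 3 transcript accessions, had a length of 1979 bases in control, 2052 at 6 h and 2170 at 24 h. The weight thus lay more on longer transcripts in the treated libraries while the gene's total stayed near control. Mouse Ifnar2 is known to make both a membrane chain and a shorter, soluble form. The tables used here do not split counts by transcript, so which form held the weight was not analysed here, and no error can be given for these lengths. Il10ra, also with 3 accessions, had lengths of 3460, 3491 and 3469 bases. The other 6 genes had 1 accession each.

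Both chains of the interferon gamma receptor were higher after TGFb. Ifngr1 (chromosome 10, 19591949 to 19610229, plus strand), the chain that binds the ligand, had 22.8, 36.5 and 37.7 CPM. It was 1.6-fold higher at 6 h (1.49 to 1.72) and 1.65-fold higher at 24 h (1.52 to 1.8). Ifngr2 (chromosome 16, 91547059 to 91564007, plus strand), the chain that joins it for signalling, had 75.4, 128 and 140 CPM. It was 1.7-fold higher at 6 h (1.63 to 1.76) and 1.86-fold higher at 24 h (1.78 to 1.95). At 24 h Ifngr2 passed the 2-fold limit under the 3 alternatives that turned the sign of Il10rb (log2 ratios of 1.05 with total counts, 1.16 with TPM and 1.01 with the length trend removed). Between 6 h and 24 h, Ifngr1 differed by 1.03-fold (0.962 to 1.11) and Ifngr2 by 1.1-fold (1.06 to 1.14), so both treated libraries lay close together and above control.

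The upstream windows of this pair are shown since both genes stood above control by similar ratios, with Smad boxes in capitals as before.
Ifngr1 (chr10:19591699-19591948, + strand): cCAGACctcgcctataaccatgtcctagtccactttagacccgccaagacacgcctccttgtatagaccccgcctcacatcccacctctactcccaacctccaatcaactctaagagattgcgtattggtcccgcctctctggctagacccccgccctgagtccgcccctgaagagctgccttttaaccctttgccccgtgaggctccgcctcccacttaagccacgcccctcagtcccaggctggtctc
Ifngr2 (chr16:91546809-91547058, + strand): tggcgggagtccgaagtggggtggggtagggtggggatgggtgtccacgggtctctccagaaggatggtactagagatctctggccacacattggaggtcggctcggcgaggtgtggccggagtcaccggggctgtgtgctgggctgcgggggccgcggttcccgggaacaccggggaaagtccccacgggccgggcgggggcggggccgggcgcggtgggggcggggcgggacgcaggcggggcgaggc
Ifngr1 had 1 Smad box, at position -249 from the start site, and Ifngr2 had none, and neither window matched any of the other motifs listed for Ifnlr1. The Ifngr2 window was rich in G and C (74.0% against a median of 52.4% over all windows) and held 25 CpG dinucleotides, and that of Ifngr1 held 11. Promoter entries were matched for 5 of the 8 genes, those of Ifnlr1, Ifngr1, Ifngr2, Ifnar1 and Ifnar2. In the windows of Ifnar1 and Ifnar2 a single match was found, to the Stat letters at position -214 from the Ifnar2 start site. The Ifnar1 window (91484965 to 91485214) reaches past the gene start of 91485032 given above. Much of it thus lies inside the gene as placed here.

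**Figure D2:**
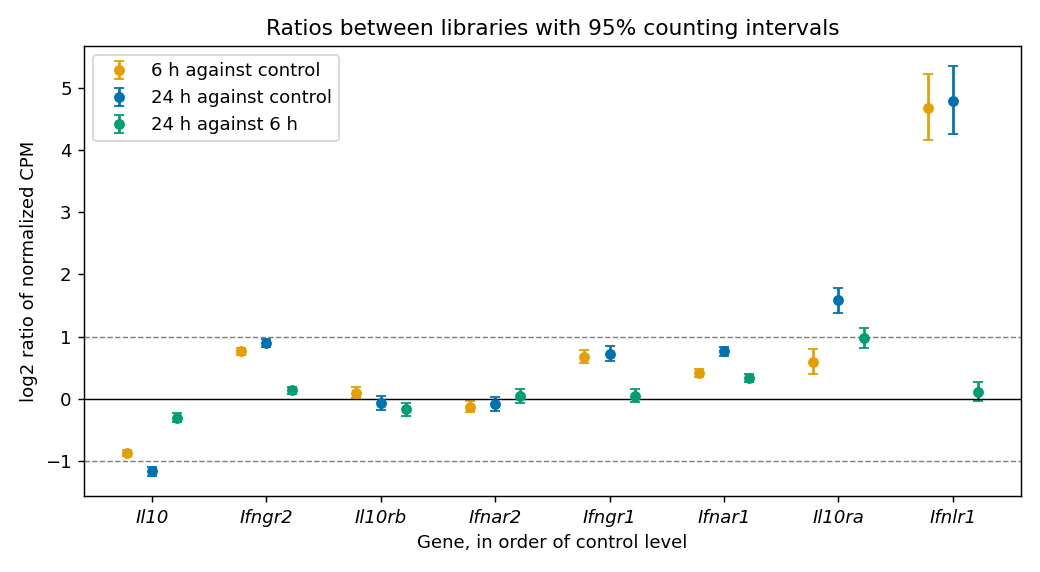
Log2 ratio of normalized CPM for each gene in the 3 comparisons, with 95% counting intervals as bars and dashed lines at 2-fold. Ifnlr1 lies at 4.67 and 4.78 against control, Il10 at -0.87 and -1.17, and Il10ra at 0.60 and 1.58.

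By the size rule (2-fold or more between libraries, where the higher one has 1 CPM and 30 counts or more), 1 of the 8 genes, Ifnlr1, was higher at 6 h and 0 were lower. The same rule counted 2.4% of all measured genes as higher and 0.363% as lower (2.76% in either direction). At 24 h, 2 of 8 were higher, Ifnlr1 and Il10ra, and 1 was lower, Il10. There the rule counted 7.41% of measured genes as higher and 2.02% as lower (9.43% in either direction). The list was chosen with these contrasts known, so nothing is read from its counts. Between 24 h and 6 h, 0 of 8 passed in either direction, beside 1.87% higher, 0.372% lower and 2.24% in either direction of all measured genes. The median log2 ratio of the 8 was 0.51 at 6 h and 0.74 at 24 h, beside medians of -0.005 and -0.011 over all measured genes. The 6 h and 24 h values share the control library and are given side by side for that reason.

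**Figure D3:**
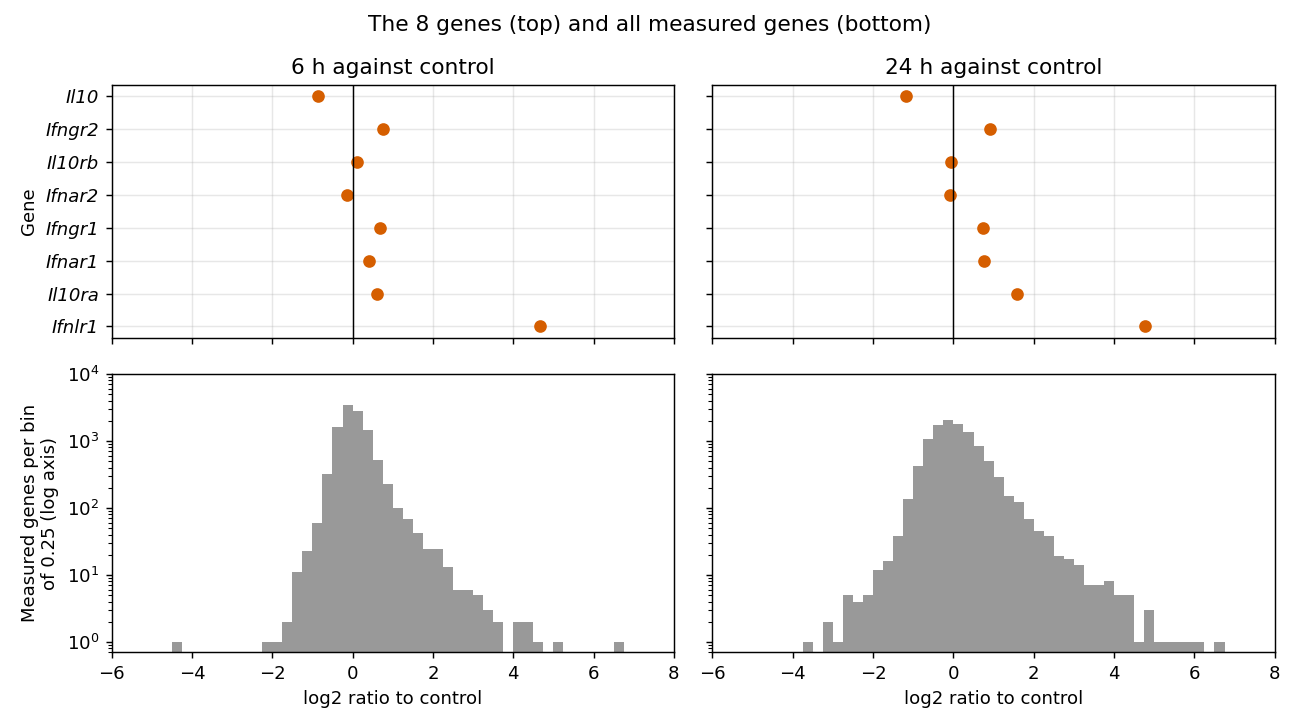
Log2 ratio to control of the 8 genes (top, points) above the distribution of the 10754 measured genes in bins of 0.25 (bottom, bars on a log axis), at 6 h and 24 h. Ifnlr1 lies in the sparse upper tail at both times, and Il10 lies in the lower tail.

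For 3 of the 4 receptors, the counting interval of the chain ratio at 24 h did not overlap that in control. Per length and within a library, the ratio of Ifnlr1 to Il10rb was 0.00714 in control (0.00487 to 0.0101), 0.169 at 6 h (0.157 to 0.181) and 0.205 at 24 h (0.184 to 0.228). In control there were thus 140 Il10rb transcripts per Ifnlr1 transcript (98.9 to 205), and at 24 h there were 4.88 (4.39 to 5.42). The ratio of Il10ra to Il10rb was 0.0831 in control (0.0736 to 0.0935), 0.116 at 6 h (0.106 to 0.126) and 0.259 at 24 h (0.234 to 0.287). For both receptors the chain that gives specificity was the scarcer one in each of the 3 libraries. At 6 h Ifnlr1 exceeded Il10ra per length, and at 24 h Il10ra exceeded Ifnlr1.

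The type I receptor chains were nearest to each other in level at 24 h. Ifnar1 over Ifnar2 was 0.456 in control (0.429 to 0.484), 0.694 at 6 h (0.66 to 0.731) and 0.904 at 24 h (0.841 to 0.972). This ratio uses the Ifnar2 length, which differed between libraries as given above. The trend of ratios on transcript length also bears on it. With that trend removed, the log2 ratio to control at 24 h was 0.40 in place of 0.76 for Ifnar1. For Ifnar2 it was 0.03 in place of -0.08. The type II receptor chains kept nearly the same ratio, with Ifngr1 over Ifngr2 at 0.296 in control (0.277 to 0.317), 0.279 at 6 h (0.267 to 0.292) and 0.263 at 24 h (0.246 to 0.282).

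**Figure D4:**
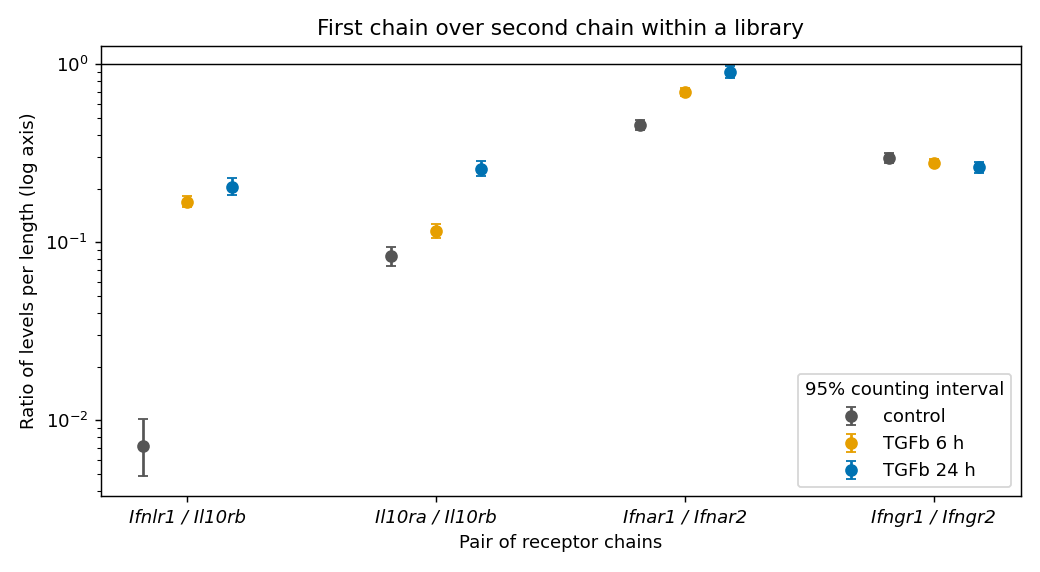
Ratio of the first chain to the second within each library, from counts per effective length (log axis), with 95% counting intervals. Ifnlr1 over Il10rb moves from 0.00714 to 0.169 and 0.205, while Ifngr1 over Ifngr2 stays between 0.263 and 0.296.

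Ifnar2, Il10rb, Ifnar1 and Ifngr2 lie in this order on the plus strand of chromosome 16, in a stretch of 191.2 kb. Ifnar2 and Il10rb are 567 bases apart, Il10rb and Ifnar1 59.2 kb, and Ifnar1 and Ifngr2 36.5 kb. The first pair stood near control at 24 h (log2 ratios of -0.08 and -0.07) and the second pair above it (0.76 and 0.90). The strand setting of the counting is not given in the sources used here, and reads running past the end of Ifnar2 into Il10rb were not analysed here. Within 200 kb of the group, 7 other protein-coding genes were measured, with log2 ratios from -0.77 to 1.56 at 24 h. The gene next to Ifngr2, Tmem50b, had 16.4, 24.4 and 34.8 CPM, and Dnajc28, a DnaJ family gene beyond it, 0.7, 1.31 and 2.07 CPM (34, 84 and 60 counts). Gart, an enzyme of purine synthesis, was on the lower side, with 622, 485 and 364 CPM, and Itsn1, an endocytic scaffold, had 83.6, 111 and 175 CPM. Of these 7 neighbours, 3 were at least 2-fold higher at 24 h (Tmem50b, Dnajc28 and Itsn1), beside 7.41% of all measured genes.

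**Figure D5:**
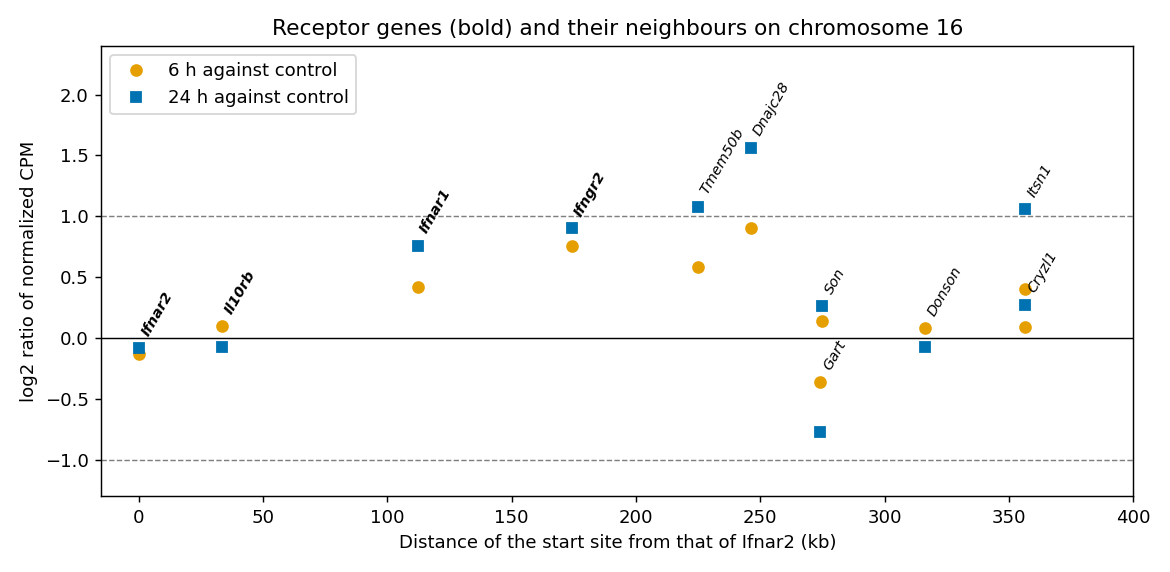
Log2 ratio to control at 6 h (circles) and 24 h (squares) of the measured genes in the chromosome 16 region, by distance of the gene start from that of Ifnar2 in kb; receptor genes are in bold. Ifnar2 and Il10rb lie near 0, Ifnar1 and Ifngr2 at 0.76 and 0.90 at 24 h, and neighbours lie on both sides of 0.

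Of the 4 genes beside Ifnlr1 and Il10, 1 was measured. Il22ra1, another class II chain that starts 41.7 kb from Ifnlr1, had 0, 4 and 1 counts, and Grhl3, an epithelial transcription factor on the other side, had 0, 1 and 0. Next to Il10, the related cytokine gene Il19 had 1, 11 and 1 counts. Mapkapk2, a stress kinase gene on the other side of Il10, had 241, 212 and 180 CPM.

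Ligands for these receptors had few or no counts. Of 25 listed ligand genes (type I, II and III interferons and the Il10 relatives), 19 had 0 counts in each library and 0 were measured. The highest count of any of them was 11, for Il19 at 6 h. A count of 0 allows a level of up to 0.0617, 0.0466 and 0.103 CPM (3 counts, counting error only). Ifnl2 had 0, 0 and 1 counts and Ifnl3 0 in each library, and the alpha interferon genes are near copies whose reads could be split. Among the other class II chains, Il20rb had 4.16, 3.76 and 3.62 CPM, and F3, tissue factor, had 54, 46 and 13 counts and was lower at 24 h (log2 ratio of -1.31). Il20ra, Il22ra1 and Il22ra2 had at most 4 counts. Il10 was thus the 1 cytokine of the family with a level above the minimum.

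Most of the listed Janus kinases and Stat factors had ratios above 1. The list goes by gene family, so not every gene in it, Jak3 and Stat6 among them, need act below these receptors. Of 11 genes counted here (Janus kinases, Stat factors and Irf9), all were measured, 1 was at least 2-fold higher at 6 h (Jak2) and 2 at 24 h (Jak2 and Stat3), and 0 were lower. The median log2 ratio was 0.48 at 6 h and 0.92 at 24 h, and 11 and 10 of the 11 had a ratio above 1. Over all measured genes, 49.3% and 49.0% had a ratio above 1. The size rule counted 2.4% and 7.41% of them as higher, and 0.363% and 2.02% as lower. Jak2, the kinase bound to Ifngr2, had 31.2, 69.2 and 95.9 CPM. Stat3, the main Stat below the Il10 receptor, had 72.3, 101 and 147 CPM, and Irf9, the DNA-binding part of the factor that type I and III interferons activate, had 17.7, 20.1 and 35.3 CPM. Stat2, the partner of Irf9 in that factor, had 14.2, 20.1 and 28.3 CPM. Counts of Jak1, Jak3, Stat5a and Stat5b were not whole, which marks reads shared with other genes.

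Of 19 listed inhibitors of these pathways, all measured, 1 was higher at 6 h and at 24 h and 0 were lower, with medians of -0.05 and 0.29. Over all measured genes, 2.4% and 7.41% were higher and 0.363% and 2.02% lower. The inhibitor counted as higher was Socs3, which blocks Janus kinase signalling and is itself a Stat3 target, with 1.42, 3.45 and 5.62 CPM. Cish, another Stat target, had 3.0, 6.0 and 4.93 CPM and Usp18, which binds Ifnar2 and damps type I signalling, 3.5, 3.31 and 6.27 CPM.

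Of 49 interferon-stimulated genes counted here, 34 were measured, and the list shares Stat2, Irf9, Isg15 and Usp18 with the lists above. At 6 h, 1 was higher (Oasl2), 0 lower and 16 of 34 had a ratio above 1, with a median of -0.04. At 24 h, 6 were higher, 2 lower and 27 of 34 had a ratio above 1, with a median of 0.61. Beside them, 2.4% and 7.41% of all measured genes were higher, 0.363% and 2.02% lower, and 49.3% and 49.0% above 1. The 6 genes higher at 24 h were Oasl2, the antiviral genes Mx1 and Oas2, Dhx58 (a regulator of RNA sensing) and the guanylate-binding protein genes Gbp4 and Gbp9. Dhx58 had 11.3, 14.4 and 28.9 CPM, Gbp9 5.45, 5.94 and 15.9 CPM, and Mx1 0.761, 0.653 and 2.38 CPM. Counts of Gbp4 and Gbp9 were not whole, and Oas2 had 29, 39 and 37 counts. Rsad2, Mx2 and Cmpk2 had 0 counts in each library, control included, and Ifit1 had 13, 3 and 18. Whether the cells responded to an interferon was not tested. The lower ones were Bst2, a membrane protein that tethers virus particles, with 53.6, 36.0 and 24.0 CPM, and Isg20, an exonuclease, with 3.02, 1.8 and 1.1 CPM.

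Transcription factors tied to Il10 expression were measured for 22 of 25 listed. At 6 h, 1 was higher (Ahr) and 1 lower (Nfil3). At 24 h, 3 were higher (Ahr, Bhlhe40 and Stat3) and Nfil3 alone was lower, with medians of 0.33 and 0.45. Over all measured genes, 2.4% and 7.41% were higher and 0.363% and 2.02% lower at 6 h and 24 h. Ahr, a ligand-activated factor, had 17.7, 56.5 and 85.2 CPM. Bhlhe40 had 161, 275 and 396 CPM. Nfil3 had 32.9, 12.0 and 10.6 CPM. The part of any of these factors in the level of Il10 was not tested. Of 14 genes that Il10 is known to raise in leukocytes, 10 were measured. At 6 h 1 was higher (Socs3) and at 24 h 2 (Socs3 and Ddit4), Nfil3 was lower at both times, and medians were 0.22 and 0.51. The shares over all measured genes given above for the transcription factors hold here too. Bcl3, a partner of NF-kB, had 27.1, 39.6 and 53.3 CPM, and Ddit4, an inhibitor of mTORC1, 30.9, 59.5 and 63.7 CPM.

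Class I cytokine receptor chains form the sister family. Of 32 listed, 20 were measured, 1 was higher at 6 h (Csf2ra) and 5 at 24 h (Csf2ra, Csf2rb, Csf2rb2, Il3ra and Epor). Of these, Csf2ra (25, 78 and 34 counts), Il3ra (50, 95 and 62) and Epor (20, 50 and 34) rest on few counts. Il6ra alone was lower at 24 h, with 10.6, 8.13 and 3.89 CPM, and the medians were 0.22 and 0.28. Over all measured genes, 2.4% and 7.41% were higher and 0.363% and 2.02% lower at 6 h and 24 h. Csf2rb and Csf2rb2, near copies with counts that were not whole, had 226, 325 and 479 CPM and 24.0, 43.1 and 76.5 CPM, and Il2rb had 15.8, 29.6 and 29.7 CPM. Of 15 listed early Smad targets, 12 were measured, while Pmepa1, Bambi and Id1 were not. Of the 12, 7 were at least 2-fold higher at 6 h and 0 lower, and 6 were higher and 0 lower at 24 h. The shares over all measured genes are those just given. This list was chosen with earlier results of these data known, so it is no check on the treatment. With the length trend removed, Ski (just under the limit) and Smad7 (log2 ratio of 0.94) missed the 2-fold limit at 6 h. Tgfbr1 had 40.9, 225 and 295 CPM, Skil 36.8, 145 and 170 CPM, Ldlrad4 2.43, 13.4 and 22.1 CPM and Smad6 2.76, 7.94 and 9.17 CPM.

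Genes whose pattern over the 3 libraries was most like that of Ifnlr1 were found by the distance between pairs of log2 ratios to control, over 10468 measured genes without predicted models. The nearest were Cx3cr1, a chemokine receptor (distance 0.628), Vcam1, an adhesion molecule (0.666), Apoc2 (0.897), Mpzl2 (1.09) and Slc1a3 (1.16). Their control counts were 3, 5, 1, 23 and 3, so each rests on few reads in control, as Ifnlr1 does. Nearest to Il10 were Hist1h2ap (0.00986, counts not whole), Hgh1 (0.0131), Pip5k1b (0.0762), Pex11a (0.0787) and Exosc6 (0.0827).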

How the data were processed

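Messenger RNA of CH12 cells was sequenced in 3 libraries with 50 sequencing cycles. Build mm10 and the tools STAR, RSEM, bedtools and CASAVA 1.8.2 come from the submitters' processing notes. Roles, other versions, annotation and strand setting were not given in the sources used here. Per the file headers, the authors deposited RSEM tables with an expected count, a TPM and an FPKM value and a length per gene. Of these, the expected count deposited by the authors is not normalized; the deposited TPM is scaled to effective length; the deposited FPKM was not used. The gene lengths, another column deposited by the authors, are RSEM's means over transcripts.

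Expected counts were rounded and scaled with TMM factors (edgeR 4.0.16, R 4.3.3; 0.9459, 1.0015 and 1.0556 for control, 6 h and 24 h). With 1 library per group no test was run. A gene counted as apart if the libraries differed 2-fold or more and the higher one reached 1 CPM and 30 counts. A 0 was set to 3 counts. Ratios carry exact conditional (Clopper-Pearson) 95% intervals. The members, lists and rules were chosen with earlier results of these data known. Named besides the 8 genes were up to 4 per list with the largest difference of log2(CPM + 1) at 24 h, genes past the limit, the 5 nearest patterns, and neighbours; other list members given, Cd22 and the neighbours singled out were chosen after their values were seen. Some list members are not reported here and were left out of the lists' counts. All 8 genes had whole counts. Other scalings tried were total counts, TPM, upper quartile and the size factors of DESeq2 1.42.0, besides other minimums and limits and removal of the trend of the ratio on transcript length.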

Additional observations from a re-analysis of the deposited data

Results flagged for a closer look

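Il10rb, Mx1 and Usp18 are 3 genes whose ratios to control at 6 h and 24 h had opposite signs. There was 1 library at each time, and the difference between the times was not tested. In each of these 3 the counting interval holds a ratio of 1 at 1 of the times. Other listed genes also turned sign. Among them were Irf7 (log2 ratios of -0.36 and 0.59) and Irgm1 (-0.13 and 0.43), with intervals that leave out 1 at both times. Il10rb had log2 ratios to control of 0.10 at 6 h and -0.07 at 24 h, where the interval of the ratio is 0.886 to 1.03. Mx1 had -0.22 and 1.64, from 37, 42 and 69 counts (control, 6 h, 24 h), and its interval at 6 h is 0.538 to 1.37. Usp18 had -0.08 and 0.84, with an interval of 0.77 to 1.17 at 6 h. Its sign at 6 h turned with TPM (0.08) and with the length trend removed (0.02), as that of Il10rb at 24 h did.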

How the results depend on the processing

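No paired analysis was possible because each group had 1 library and no result comes from a test, and leaving out a library was not possible for the same reason. Of 168 values of the 8 genes under alternatives, 128 lay within the counting interval and 40 moved outside it. The 128 include all values under the other minimums, which cannot change a ratio, so those were fixed in advance. Of the 168, 8 crossed the 2-fold limit in one direction or the other. Signs turned in 6, those of Il10rb and Ifnar2 at 24 h given above. Ifnlr1 was past the limit against control at both times, and Il10ra at 24 h, under each alternative that kept the 2-fold limit. At a limit of 1.5-fold, 5 of 8 genes passed at 6 h, 6 at 24 h and 1 at 24 h against 6 h, beside 8.91%, 28.7% and 8.47% of all measured genes. At 3-fold 1 passed at 24 h, beside 3.25%. Il10ra passed 2-fold at 24 h against 6 h with total counts and with TPM (1 of 8 each, with a log2 ratio of 1.06 under total counts). The median of the 8 was 0.66 at 6 h with TPM, 0.90 at 24 h with total counts, 1.01 with TPM and 0.62 with the length trend removed, and 0.19 at 24 h against 6 h with TPM. TPM moved the median measured gene by 0.158 at 6 h, 0.265 at 24 h and 0.107 at 24 h against 6 h, and total counts by 0.158 at 24 h. Of the genes counted as apart at 24 h, 78.6% were higher, but 90.1% with total counts and 93.6% with TPM. Among the other genes named, with the length trend removed Stat3 (0.85), Gbp4 (0.88), Csf2rb (0.89), Oas2 (0.98), Itsn1 (0.80) and Bst2 (-0.83) missed the 2-fold limit at 24 h. Bst2 also missed it with TPM (-0.88) and total counts, and Stat3 with DESeq2. Below the minimum with TPM were Oasl2 at 6 h and F3 and Oas2 at 24 h. With a minimum of 5 CPM, Oasl2, Csf2ra and Socs3 were no longer counted at 6 h, nor Oasl2, Csf2ra, Mx1, Oas2, Isg20, F3, Il3ra, Epor and Dnajc28 at 24 h. With TPM, Irf9 (1.26), Stat2 (1.25), Bcl3 (1.24) and Usp18 (1.11) passed the limit at 24 h. Depth limits Ifnlr1 in control (32 counts) and the ligands. The causes of these shifts were not tested.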
